A study of Mus musculus with 8 samples.

Results

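TM3 is an established line of Leydig cells from the mouse testis, and the normal TM3 libraries of a study of bisphenol A were described here as a baseline. The members were the genes with at least 100 reads in both normal RNA-seq libraries, 6193 of the 12404 genes of the count table (49.9%). The series holds 8 samples, with RNA-seq and m6A immunoprecipitation libraries of normal and of exposed cells, and only the 2 normal RNA-seq libraries were used. Both are labelled as normal TM3 mouse Leydig cells, and the labels give no culture medium, passage or hormone stimulus. Poly(A) RNA was captured on oligo-dT beads and cut into short fragments before library preparation, per the labels' protocols, and the RNA-seq libraries also served as input of the m6A immunoprecipitation, per the series' design text. Whether the libraries came from separate cultures is not stated, so their spread may be technical.

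Leydig cells lie in the interstitium between the seminiferous tubules and make testosterone from cholesterol when luteinizing hormone acts on its receptor. Cholesterol is carried into mitochondria by STAR, cut by CYP11A1 and then converted by HSD3B, CYP17A1 and HSD17B enzymes. Their precursors are spindle-shaped mesenchymal cells of the interstitium, known for PDGFRA and the nuclear receptor COUP-TFII. Cell lines of this kind grow attached and divide, and stromal cells in culture are known for secreting collagen and fibronectin.

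Library 1 held 10455643 reads and library 2 held 7517482, and the members took 94.4% and 95.1% of them. Levels are given as reads per 1000000 reads of the library total (CPM), first for library 1 and then for library 2. A gene at 0 reads could have had up to 0.287 CPM in library 1 and 0.399 CPM in library 2 by counting error alone, from a limit of 3 counts. Of the members, 5913 (95.5%) were protein-coding in the RefSeq annotation of GRCm38.p6, 166 were pseudogenes and 44 were long noncoding RNAs. A further 67 had no match in that annotation and took 5.81% and 4.72% of reads. Another 2 were matched as ribosomal RNAs, with 0.519% and 0.479% of reads. That share leaves out any ribosomal RNA among the 67 genes without a match. No transcript lengths were used, so CPM shows how many reads a gene took and not how many transcripts it had.

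Matrix and stromal genes were among the genes that took the most reads. Fibronectin (Fn1), a fibril-forming glycoprotein of the matrix, had 4595 and 3862 CPM. Sparc, a collagen-binding glycoprotein, had 3657 and 4636 CPM, and Col3a1, the chain of type III collagen, had 2818 and 5403 CPM. These 3 were among the 20 genes with the highest mean CPM. The list of fibroblast and stromal genes had 22 entries, of which 19 were rows of the table and 15 were members. Members thus made up 78.9% of its rows, against 49.9% of all rows. The summed level of the list was 21556 and 26073 CPM. Col1a2 had 2738 and 3525 CPM and Col1a1, the other chain of type I collagen, 2656 and 2866 CPM. Vimentin (Vim), the intermediate filament of mesenchymal cells, had 1786 and 1118 CPM. The libraries stood closer to each other for Col1a1 than for Vim or Col3a1. Cdh11, the cadherin of mesenchymal cells, had 591 and 918 CPM. Of the listed rows outside the members, Pdgfrb, a pericyte receptor, had 208 and 79 reads, Prrx1, a limb mesenchyme factor, 217 and 0 and S100a4, a calcium-binding protein of motile cells, 0 and 148. Lumican (Lum), a keratan sulfate proteoglycan, had 0 reads in both libraries. The listed genes Thy1, Fap and Postn were not among the rows.

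**Figure D1:**
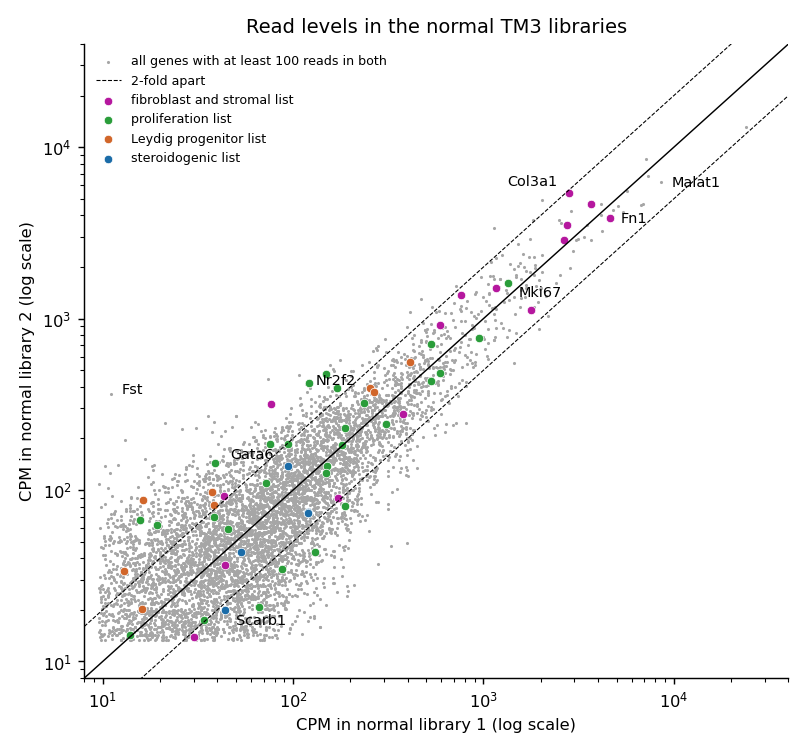
CPM of each member gene in normal library 1 (horizontal axis) and library 2 (vertical axis), both on log scales, with 4 gene lists in colour. The solid line marks equal levels and the dashed lines a 2-fold difference. Fibroblast and stromal genes reach the upper right, the steroidogenic members lie near or under 100 CPM, and Fst lies far above the dashed lines.

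Promoter sequences of 4 members, chosen after their values were seen, show how genes with many reads here differ in the sequence before their start site. Each stretch is the 150 bases upstream of the annotated start in the RefSeq sequences of GRCm38.p6, written 5′ to 3′ on the gene's strand, and capitals mark CG pairs and the motif TATAAA. Col3a1 (chr1:45311388-45311537, plus strand) and Vim (chr2:13574161-13574310, plus strand) are stromal genes, Ncl (chr1:86359456-86359605, minus strand) encodes nucleolin of the nucleolus, and Mki67 (chr7:135716380-135716529, minus strand) encodes the Ki-67 protein of dividing cells.
Col3a1: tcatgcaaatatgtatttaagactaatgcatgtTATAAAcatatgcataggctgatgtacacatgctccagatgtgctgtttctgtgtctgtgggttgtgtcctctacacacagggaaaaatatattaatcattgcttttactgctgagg
Vim: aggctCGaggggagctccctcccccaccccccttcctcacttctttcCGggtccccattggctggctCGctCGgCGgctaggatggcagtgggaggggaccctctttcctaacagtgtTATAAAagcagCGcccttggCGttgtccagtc
Ncl: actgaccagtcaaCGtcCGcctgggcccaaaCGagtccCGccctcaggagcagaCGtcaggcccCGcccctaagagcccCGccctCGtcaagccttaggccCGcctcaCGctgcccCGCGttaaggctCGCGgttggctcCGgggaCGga
Mki67: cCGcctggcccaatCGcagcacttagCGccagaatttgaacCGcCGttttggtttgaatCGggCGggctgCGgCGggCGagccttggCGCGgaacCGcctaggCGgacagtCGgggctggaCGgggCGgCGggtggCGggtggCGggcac
These stretches held 0, 7, 16 and 20 CG pairs in the order shown. The first base of TATAAA lay 32 bases upstream of the start in Vim and 117 bases upstream in Col3a1. Neither Ncl nor Mki67 had that motif on this strand in its stretch.

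Over windows of 250 bases before to 50 after the start, the promoters of protein-coding members held a median of 23 CG pairs (quartiles 15 and 31), against 19 for the protein-coding rows that were not members. A promoter was found for 81.6% of 5913 members and 80.3% of 4363 other rows, with 6180 and 4463 windows. The median was higher at higher levels, from 21 CG pairs for members under 30 CPM to 26 for those at 1000 CPM or more. The GC box GGGCGG, on either strand and itself holding a CG pair, was in 67.9% of the members' windows, 58.5% of those of other rows and 35.7% of all 32851 windows of the sequence table, which cover genes of any type. CCAAT on either strand was in 37.9%, 37.8% and 37.4%. TATAAA on either strand was in 6.63%, 7.48% and 13.6%. On the gene's strand it started 40 to 20 bases upstream in 57 windows of members (0.922%), 52 of other rows (1.17%) and 1.99% of all windows. Vim and Prdx1, a peroxide-reducing enzyme gene, were among the members concerned. By level, this share of members' windows was 1.10% under 30 CPM, 0.494% at 30 to 100 CPM and 1.13% at 100 to 300 CPM. At 300 to 1000 CPM it was 1.76%, and at 1000 CPM or more 4.85% (5 of 103 windows). The 3 motifs are descriptions of letters and say nothing about which factors bind.

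**Figure D2:**
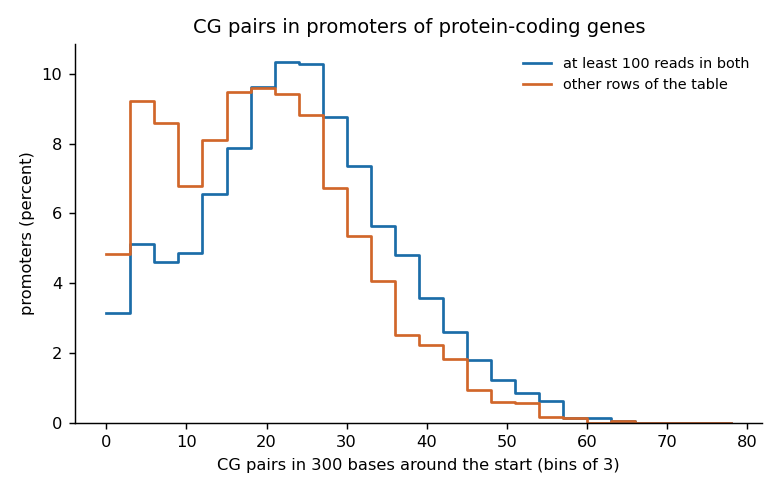
Number of CG pairs in promoter windows of 300 bases (horizontal axis, bins of 3) against the percentage of windows (vertical axis), for protein-coding members and for the other protein-coding rows. The curve of the members lies further to the right, with medians of 23 and 19.

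Most of the other genes with the most reads are known for RNA handling, translation, protein folding and mitochondria. The highest mean CPM belonged to ENSMUSG00000119584, with 23975 and 13121 CPM. This gene ID has no symbol in the name table, so its gene type was not matched. Its reads are among those of the 67 members without a match. Malat1, a nuclear noncoding RNA, had 8513 and 6265 CPM. Npm1, the nucleophosmin of the nucleolus, had 7317 and 6757 CPM and Ncl 5406 and 4209 CPM. Hnrnpa2b1, a nuclear RNA-binding protein gene, had 5685 and 5543 CPM, and Pabpc1, the cytoplasmic poly(A)-binding protein, 3518 and 3495 CPM. Pabpc1 was nearly equal in the libraries, whereas Pcbp1, which binds poly(C) stretches, had 2020.2 and 4917 CPM and was the gene of this leading set with the widest relative spread. Serbp1, a ribosome-associated protein, had 4192 and 3242 CPM and the 14-3-3 adaptor gene Ywhae 2881 and 4261 CPM. Gm14681, a pseudogene in RefSeq, had 5095 and 4539.6 CPM. The chaperones of this set were the cytosolic Hsp90ab1 with 6748 and 4585 CPM and, in the endoplasmic reticulum, Calr with 4796 and 4288 and Hsp90b1 with 4147 and 4654 CPM. Of the 34 listed translation and chaperone genes, all of them rows, 31 were members (91.2%, against 49.9% of all rows). Ribosomal protein genes numbered 81 rows and 67 members (82.7% of rows) and took 1.56% and 1.32% of reads. Proteasome genes numbered 46 rows and 35 members (76.1% of rows), with 5391 and 5242 CPM in all.

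Reads were spread over many genes. The genes needed to reach 50% of reads numbered 602 in library 1 and 585 in library 2, and the first 100 took 25.3% and 25.3%. Of the members, 96 had at least 1000 CPM in both libraries and 1644 at least 100 CPM.

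Collagens formed a broad set. Of 44 collagen chain symbols in the name table, 19 were rows and 15 were members (78.9% of rows, against 49.9% of all rows). The family took 1.33% and 1.54% of reads, or 14326 ± 1515 CPM (SD, n = 2). The fibrillar chain Col5a2 had 1663 and 1331 CPM and its partner Col5a1 248 and 255 CPM. The basement membrane chains Col4a1 and Col4a2 had 1054 and 717 CPM (Col4a1) and 630.1 and 219 CPM (Col4a2), each lower in library 2. The beaded-filament chains Col6a1 and Col6a2 had 424 and 279.9 CPM (Col6a1) and 358 and 326 CPM (Col6a2). Col11a1 and Col10a1, chains known from cartilage, had 0 and 140 reads (Col11a1) and 0 and 100 reads (Col10a1), and Col7a1, of skin anchoring fibrils, had 0 in both.

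Most listed matrix glycoproteins were members. Of 33 listed, 27 were rows and 24 were members (88.9% of rows, against 49.9% of all rows). Their summed levels were 12959.7 and 13243 CPM. Thrombospondin 1 (Thbs1) had 598 and 805 CPM and the proteoglycan biglycan (Bgn) 506 and 874 CPM. The elastic-fibre protein Fbln2 had 712 and 399 CPM and the matricellular Ccn1 516 and 429 CPM. Lama2, Lama4, Fbn2, Eln, Tgfbi and Postn were not among the rows and were not analysed here.

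Enzymes and inhibitors that shape the matrix were rows in all 30 listed cases, and 26 were members (86.7%, against 49.9% of all rows). P4hb, the protein disulfide isomerase that is also a subunit of collagen prolyl hydroxylase, had 1560.3 and 2107 CPM. The metalloprotease inhibitors Timp3 and Timp2 had 1062 and 1586 CPM (Timp3) and 933 and 1066 CPM (Timp2). Serpinh1, the collagen chaperone HSP47, had 617 and 819 CPM, the sheddase Adam10 477 and 643 CPM and lysyl oxidase (Lox), which cross-links collagen, 472 and 618 CPM. Library 2 was the higher for these genes, by less than 2-fold, but cathepsin L (Ctsl), a protease of the same list named after its values were seen, had 811 and 245 CPM. Of the 26 members 6 (23.1%) were over 2-fold apart, against 28.8% of all members. Stromelysin (Mmp3) had 0 and 8 reads and the urokinase receptor gene Plaur 0 in both.

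Genes of the actin cytoskeleton had the highest share of members among the rows of any of the 26 lists. There were 30 members among 31 rows and 32 entries (96.8% of rows, against 49.9% of all rows). Thymosin beta 4 (Tmsb4x), which sequesters actin monomers, had 1137 and 3397 CPM and lay more than 2-fold apart. Tropomyosin 1 (Tpm1) had 2419 and 1605 CPM, caldesmon (Cald1) 1666 and 1575 CPM and beta-actin (Actb) 1369.9 and 1291 CPM. Cofilin (Cfl1), which severs filaments, had 856 and 1087 CPM and non-muscle myosin heavy chain Myh9 1024 and 662 CPM. Actg1, the gamma-actin gene, had 45.2 and 52.4 CPM. Actb and Actg1 encode near-identical proteins and have processed copies in the genome, so their division of reads is uncertain.

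Of 18 microtubule genes, 17 were rows and 13 were members (76.5% of rows, against 49.9% of all rows). The beta-tubulin gene Tubb5 had 2547 and 3631 CPM. The motor genes Dync1h1 and Kif5b had 419.6 and 353 CPM (Dync1h1) and 353 and 216 CPM (Kif5b), and the microtubule-associated Map1b 348 and 162, Mapre1 217 and 237 and Dctn1, a dynactin subunit, 253 and 121 CPM. The alpha-tubulin genes Tuba1a and Tuba1b had 744 and 50 reads (Tuba1a) and 269 and 98 reads (Tuba1b) and missed the threshold in library 2. Among 14 intermediate filament and lamina genes 9 were rows and 6 were members (66.7% of rows, against 49.9% of all rows). Besides Vim these were Lmnb1 with 203 and 313, the linker Plec with 167 and 92.1, Lmna with 158 and 58.1, Lmnb2 with 72.8 and 42.4 and Lbr, the lamin B receptor, with 26.6 and 59.2 CPM. Nestin (Nes), a filament of progenitor cells, had 0 and 2 reads, and desmin (Des) and synemin (Synm), filament genes of muscle, had 0 in both. Gfap, Nefl, Nefm, Krt8 and Krt18 were not among the rows.

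Adhesion genes had 18 members among 20 rows of 26 listed (90% of rows, against 49.9% of all rows). Itgb1, the beta chain shared by most matrix-binding integrins, had 1874 and 1986 CPM, and the alpha chain Itgav 411 and 562 CPM. Beta-catenin (Ctnnb1) and alpha-catenin (Ctnna1) had 807 and 1149 CPM (Ctnnb1) and 575 and 492 CPM (Ctnna1). Vcam1, an adhesion receptor of the immunoglobulin family, had 425 and 515 CPM. Of 26 integrin symbols 12 were rows and 7 were members (58.3% of rows, against 49.9% of all rows). None of the 7 was over 2-fold apart between the libraries, where 28.8% of all members were.

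Genes of carbon metabolism were mostly members. Of 20 glycolysis and lactate genes 17 were members (89.5% of rows, against 49.9% of all rows). The summed levels of the list were nearly equal, at 7270.1 and 7235 CPM, though single genes differed more. Pyruvate kinase (Pkm) had 1861 and 2048 CPM, and the lactate transporter gene Slc16a1 1377 and 2086 CPM. Triosephosphate isomerase (Tpi1) had 1007 and 763, phosphoglycerate kinase (Pgk1) 675 and 402, enolase (Eno1) 481 and 509 and lactate dehydrogenase A (Ldha) 475 and 269 CPM. Gapdh, a glycolytic enzyme gene with many processed copies, had 104 and 26 reads and fell under the threshold. All 22 tricarboxylic acid cycle genes were rows and 19 were members (86.4% of rows, against 49.9% of all rows). The mitochondrial NADP-dependent isocitrate dehydrogenase gene Idh2 had 629 and 1081 CPM, the cytosolic malate dehydrogenase gene Mdh1 368 and 134 and the pyruvate dehydrogenase subunit gene Pdha1 201 and 114 CPM. Sdha, of succinate dehydrogenase, had 189 and 108 CPM, and the oxoglutarate dehydrogenase subunits Dlst and Ogdh 115 and 142 CPM (Dlst) and 65.3 and 169.6 CPM (Ogdh). Of the 19 members, 9 (47.4%) were over 2-fold apart between the libraries, against 28.8% of all members.

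Mitochondrially encoded RNAs took 3.33% and 3.12% of reads. Cytochrome b (mt-Cytb) had 7167 and 8485 CPM, and the complex I subunits mt-Nd2, mt-Nd1 and mt-Nd5 had 6891 and 4673 CPM (mt-Nd2), 4122 and 4029.7 CPM (mt-Nd1) and 3667 and 2866 CPM (mt-Nd5). The cytochrome oxidase genes differed: mt-Co1 had 35440 and 22624 reads, mt-Co2 294 and 385 and mt-Co3 40 and 112. Nuclear copies of mitochondrial genes and genes on the opposite strand make such counts uncertain, since the treatment of multi-mapping reads and of strand is not known here.

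Cholesterol, the substrate of steroids, is made in the cell or taken up. Of 24 genes of cholesterol synthesis and uptake 23 were rows and 14 were members (60.9% of rows, against 49.9% of all rows). Hmgcs1, a synthase of the mevalonate pathway, had 579 and 776 CPM. The sterol demethylase gene Cyp51 had 616 and 439 CPM and the squalene epoxidase gene Sqle 161 and 114 CPM. Srebf2, the transcription factor that controls this pathway, had 179 and 169 CPM, and Soat1, which esterifies cholesterol for storage, 158 and 125 CPM. Tm7sf2, a sterol reductase gene, had 0 and 6 reads and Ebp, a sterol isomerase gene, 0 in both, and Mvd, the decarboxylase of the pathway, had 420 and 0. Of 25 fatty acid genes 23 were rows and 18 were members (78.3% of rows). Of these members 2 (11.1%) were over 2-fold apart, against 28.8% of all members. The desaturase gene Scd2 had 1749 and 1876 CPM, ATP-citrate lyase (Acly) 670.1 and 773 and the elongase gene Elovl5 275 and 655. The desaturases Fads2 and Fads1 had 426 and 283 CPM (Fads2) and 257 and 327 CPM (Fads1), and the lipid-droplet coat gene Plin2 84.5 and 154 CPM. Fabp3 and Cd36 were not among the rows.

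Growth factor receptors of several families were members. Of 48 listed, 38 were rows and 27 were members (71.1% of rows, against 49.9% of all rows). Met, the receptor of hepatocyte growth factor, had 420.3 and 772 CPM and Bmpr1a, a receptor of bone morphogenetic proteins, 410.5 and 471 CPM. The endocytic receptor gene Lrp1 had 445 and 371 CPM and Il6st, the shared signal chain of the interleukin 6 family, 409 and 336 CPM. Axl, a receptor of Gas6, had 369 and 371 CPM, and the epidermal growth factor receptor gene Egfr 357 and 344 CPM. Axl and Egfr were nearly equal in the libraries. The ligands included Gas6 with 219 and 280.0 CPM, the chemokine Cxcl12 with 370.1 and 594, the macrophage growth factor Csf1 with 304 and 247 and Hdgf, a heparin-binding nuclear protein, with 401 and 319.8 CPM. Igfbp4, which binds insulin-like growth factors, had 1443 and 552 CPM and Manf, a protein released under stress of the endoplasmic reticulum, 333 and 537 CPM. Of 40 secreted factor genes 30 were rows and 25 were members (83.3% of rows, against 49.9% of all rows). Of those members 16 (64%) were over 2-fold apart, against 28.8% of all members.

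Of 39 nuclear receptors and AHR partners, 22 were rows and 13 were members (59.1% of rows, against 49.9% of all rows). Nr2f2, which encodes COUP-TFII, had 266 and 372 CPM and the glucocorticoid receptor gene Nr3c1 214 and 138 CPM. The retinoic acid receptor gene Rarg had 113 and 153, the AHR partner Arnt 137 and 109.9, the clock receptor gene Nr1d2 97.3 and 115 and the dioxin receptor gene Ahr 69.5 and 31.8 CPM. Esr1, the estrogen receptor alpha gene, had 97 and 912 reads, 3 short of the threshold in library 1 and well above it in library 2. Esr2, the estrogen receptor beta gene, Nr5a1 and Pparg were among 17 listed genes that were not rows. Of 29 hormone, G protein-coupled and cytokine receptors 12 were rows and 7 were members (58.3% of rows). The thrombin receptor gene F2r had 1455 and 1941 CPM. The tumor necrosis factor receptor gene Tnfrsf1a had 73.7 and 109.7, the growth hormone receptor gene Ghr 27.5 and 85.9, the interleukin 1 receptor gene Il1r1 67.2 and 32.6, the lysophosphatidic acid receptor gene Lpar1 59.9 and 37.5 and the interferon gamma receptor gene Ifngr1 10.9 and 54.1 CPM. Gper1, a membrane receptor that responds to estrogen, had 0 and 46 reads.

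The steroidogenic list set the label Leydig cell against its defining genes. Of 20 listed genes 9 were rows and 5 were members, or 55.6% of its rows against 49.9% of all rows. Star, Cyp11a1, Cyp17a1, Hsd3b1, Hsd3b6, Hsd17b3, Srd5a1, Fdx1, the luteinizing hormone receptor gene Lhcgr, the hormone gene Insl3 and Nr5a1, which encodes the factor SF-1, were not among the rows and were not analysed here. The members described here have wide roles. Gata6, a GATA factor of gonads and other organs, had 94.5 and 137 CPM (116 ± 30.3, mean ± SD, n = 2). Fdxr, which passes electrons to mitochondrial cytochromes P450, had 119 and 73 CPM. Por, the electron donor of cytochromes P450 in the endoplasmic reticulum, had 53 and 43.5 CPM and the high-density lipoprotein receptor gene Scarb1 43.8 and 19.95 CPM. Gata4, a partner of GATA6 in the gonad, had 0 and 104 reads, the inhibin alpha gene Inha 0 and 49, Tspo of the outer mitochondrial membrane 12 and 36 and Akr1c14, a hydroxysteroid dehydrogenase gene, 0 in both. The 11 listed genes that were not rows thus gave no level here, among them Star, Cyp11a1 and Lhcgr. Of the listed rows outside the members, 1 had at least 100 reads in 1 library and 3 were under 100 in both. The label was checked only against the 9 listed genes that were rows.

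Genes of Leydig progenitors and interstitial stroma formed a second list. Of 16 listed 11 were rows and 8 were members (72.7% of rows, against 49.9% of all rows). At a threshold of 200 reads in both libraries 5 of these 11 rows and 4 of the 9 steroidogenic rows passed. Pdgfra, the platelet-derived growth factor receptor of these cells, had 254 and 394 CPM (324 ± 98.5, mean ± SD, n = 2), and Nr2f2 had 319 ± 75.6 CPM by the same measure. These genes had 2660 and 2960 reads and 2777 and 2800 reads, and Itgav, an integrin chain in the same list, 4299 and 4223. Lifr, the leukemia inhibitory factor receptor gene, had 37.6 and 97.9 CPM and the ligand gene Wnt5a 38.4 and 81.5 CPM. Igf1, the insulin-like growth factor gene, had 16.3 and 87.5 CPM and the hedgehog effector Gli2 13 and 33.7 CPM. All 4 were over 2-fold higher in library 2. Nr2f1, the COUP-TFI gene, had 16.1 and 20.2 CPM. The hedgehog receptor gene Ptch1 had 188 and 18 reads and Mcam, a perivascular adhesion gene, 0 and 92. Thy1, Tcf21, Gli1 and Ly6a were not among the rows.

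**Figure D3:**
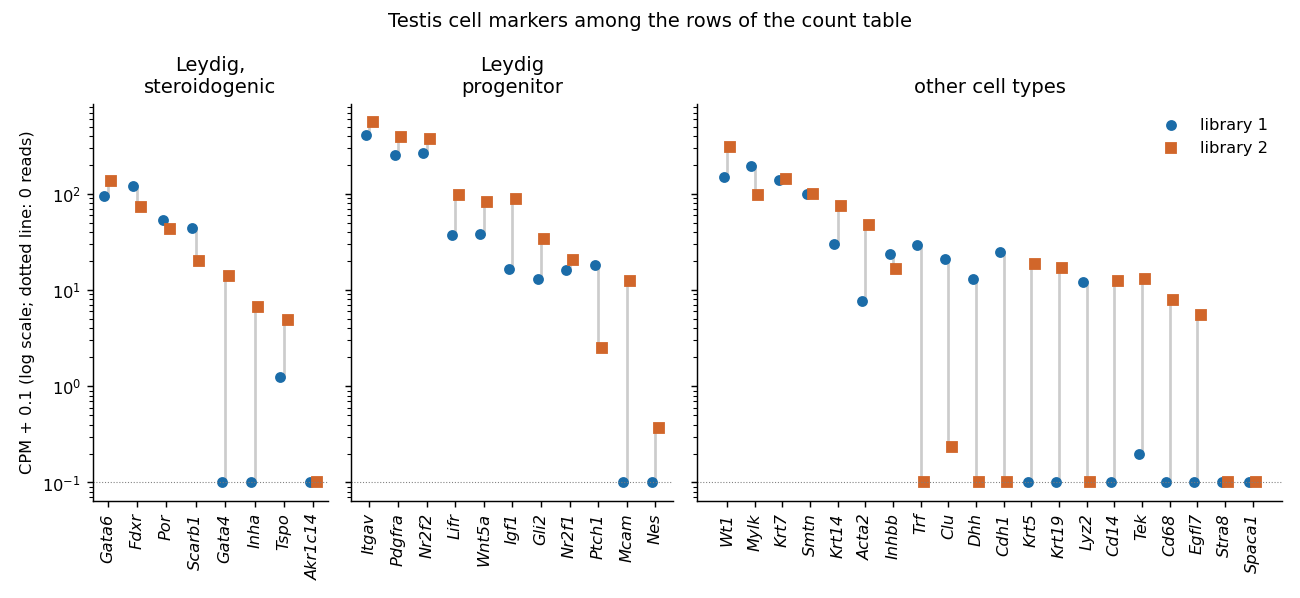
CPM plus 0.1 on a log scale for most of the listed Leydig genes and markers of other cell types that were rows of the table, with library 1 as blue circles and library 2 as orange squares. The dotted line marks 0 reads. Itgav, Pdgfra and Nr2f2 lead in both libraries, and many of the genes of other cell types have reads in 1 library and 0 in the other.

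Markers of other cell types were members in some lists and not in others. Of 10 germ cell markers the 2 rows, Stra8 and Spaca1, had 0 reads in both libraries. Of 10 macrophage markers the rows were Cd14 with 0 and 92, Lyz2 with 126 and 0 and Cd68 with 0 and 59 reads, summing to 12.1 and 20.1 CPM, while Adgre1, Csf1r and Ptprc were not rows. Of 10 endothelial markers the rows were Tek with 1 and 97 and Egfl7 with 0 and 41 reads. None of the 2 germ cell, 3 macrophage and 2 endothelial rows was a member. The Sertoli list had 7 rows and 2 members, or 5 by library 1 alone and 1 at 200 reads. Its members were Wt1, a factor of the early gonad and of Sertoli cells, with 149 and 307 CPM and Inhbb, the inhibin beta B gene, with 23.7 and 16.6 CPM. Other genes of this list, Clu, Trf and Dhh, had 221 and 1 reads (Clu), 303 and 0 reads (Trf) and 135 and 0 reads (Dhh), Sox8 and Rhox5 had 0, and Sox9 and Amh were not rows. Smooth muscle and peritubular members were Mylk with 196 and 97.4 CPM and Smtn with 100.2 and 99.4 CPM, both genes of actomyosin contraction. Acta2, smooth muscle actin, had 80 and 352 reads. Epithelial members were the keratins Krt7 with 140.4 and 142 and Krt14 with 29.9 and 74.2 CPM, while E-cadherin (Cdh1) had 256 and 0 reads. Members made up 28.6% of the Sertoli rows, 50% of the smooth muscle and peritubular rows and 40% of the epithelial rows. The share over all rows was 49.9%. By list, the summed level was 236 and 324 CPM for Sertoli cells and 304 and 244 CPM for smooth muscle and peritubular cells. It was 195 and 251 CPM for epithelia and 432 and 373 CPM for the steroidogenic list. It was 0.0956 and 18.4 CPM for endothelium and 0 in both libraries for germ cells. The part of other cell types in the levels above was not tested. In bulk RNA fewer cells of a type and less RNA per cell cannot be told apart.

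**Figure D4:**
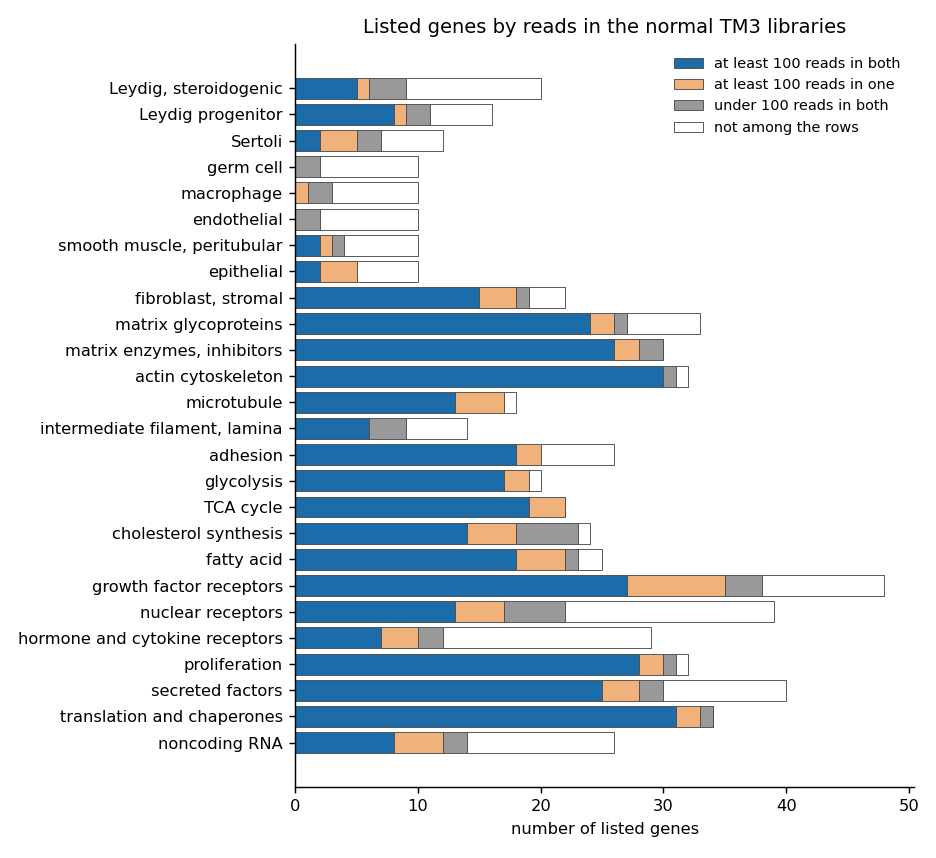
Number of genes in each of the 26 lists (horizontal axis) by their reads in the normal libraries, with members in blue. Actin, matrix enzyme, translation and proliferation lists are nearly full, whereas germ cell, macrophage and endothelial lists have no member.

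Genes of cell division were mostly members. Of 32 proliferation genes 31 were rows and 28 were members (90.3% of rows, against 49.9% of all rows). Mki67 had 1345 and 1616 CPM and the topoisomerase gene Top2a 951 and 768 CPM. Birc5, the survivin gene, had 533 and 716 CPM, the D-type cyclin gene Ccnd2 591 and 479.5 and the ribonucleotide reductase subunit gene Rrm1 528 and 432 CPM. The mitotic kinase gene Cdk1 had 148 and 478 CPM, over 2-fold higher in library 2. The 3 listed rows outside the members were Cdkn1a, the p21 inhibitor gene, with 466 and 0 reads, Trp53, which encodes p53, with 343 and 17, and the kinase gene Plk1 with 82 and 0. All of them had more reads in library 1.

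Of 26 noncoding RNAs 14 were rows and 8 were members (57.1% of rows, against 49.9% of all rows). Neat1, the scaffold of paraspeckles, had 572 and 238 CPM and the snoRNA host gene Gas5 359.7 and 332 CPM. Tug1 had 94.8 and 120.4 CPM, and the snoRNA hosts Snhg1 and Snhg5 27.1 and 124 CPM (Snhg1) and 30.3 and 72.9 CPM (Snhg5). The imprinted Meg3 had 137 and 0 reads.

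The 2 normal libraries agreed more closely for genes at high levels than for the rest. The Spearman correlation of CPM over the members was 0.744, and Pearson's r of log2 CPM was 0.802, both across genes, which are not independent replicates. Of the 6193 members 1786 (28.8%) were over 2-fold apart, 879 higher in library 1 and 907 higher in library 2. The median fold between libraries was 1.54, with a 90th percentile of 3.02. Within 2-fold lay 94.6% of the 112 members at 1000 CPM or more and 62.4% of the 3019 at 30 to 100 CPM. Members under 30 CPM reached 74.8%, where the threshold of 100 reads in both libraries itself limits how far a gene can be apart. The biological coefficient of variation, the spread beyond counting error estimated by edgeR, was 0.442 over the members.

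**Figure D5:**
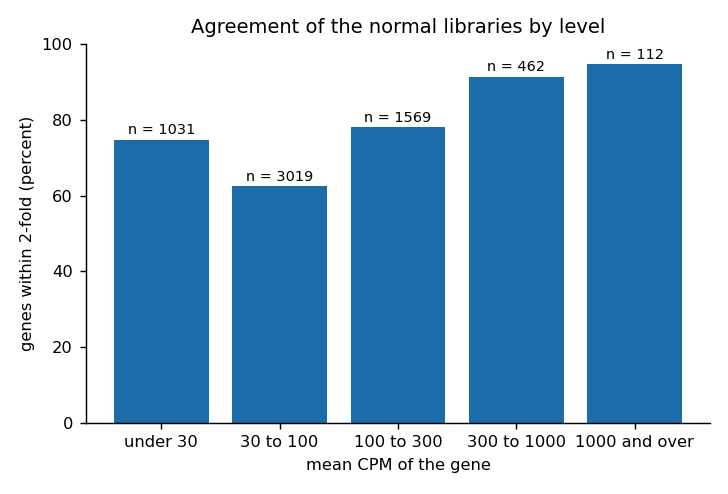
Percentage of members whose CPM in the 2 normal libraries lay within 2-fold (vertical axis) by mean CPM (horizontal axis), with the number of genes above each bar. The share is lowest at 30 to 100 CPM and highest at 1000 CPM and over.

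By list, the share of members over 2-fold apart was 9.68% for translation and chaperone genes, 11.1% for fatty acid genes, 16.7% for matrix glycoproteins and 16.7% for actin genes, each under the 28.8% of all members. It was 64% for secreted factors, 50% of 8 Leydig progenitor members, 50% of 8 noncoding RNAs, 47.4% for the tricarboxylic acid cycle and 39.3% for proliferation. Of the 67 ribosomal protein members 19 were over 2-fold apart, near the share of all members. The median level of members was 1237 CPM in the translation and chaperone list, 89.8 CPM in the tricarboxylic acid cycle list and 67.3 CPM over all members. The part of level in these shares was not tested.

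Among members with a mean of at least 100 CPM the widest gap was that of Fst, the follistatin gene whose product binds activin. Fst had 11.1 and 364 CPM, 32.8-fold higher in library 2, and the exact 95% interval of this fold, for counting error, ran from 27.2 to 39.9. The prenyltransferase subunit gene Pggt1b had 13.1 and 197 CPM and complement component C3 21.3 and 247 CPM. Ccdc50, Ppp4r3a, a phosphatase subunit gene, and Lsm8, of the U6 snRNA particle, had 26.1 and 226 CPM (Ccdc50), 35.8 and 272 CPM (Ppp4r3a) and 30.9 and 229 CPM (Lsm8). In the other direction 9930111J21Rik2 had 395 and 49.2 CPM, 8.03-fold higher in library 1 (interval 7.21 to 8.95). The bromodomain gene Baz2b had 192 and 24.2 CPM, Slf2, of DNA repair, 279 and 36.8, the zinc finger gene Zc3h18 194 and 25.7, the pseudogene Rps2-ps10 209 and 27.9 and Utp11, of ribosome assembly, 193 and 27.7 CPM. The lower bounds of these 12 intervals lay between 6.03 and 27.2, and both libraries carry the same label.

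Single-library presence was common at the edge of the set. Besides the members, 3121 rows had at least 100 reads in 1 library only, 1972 of them in library 1 and 1149 in library 2, and 1616 of these had 0 in the other. A further 3090 rows were under 100 in both, of which 878 had 0 in both. Just inside the threshold lay Git1 with 107 and 100, Rab32 with 173 and 100, Hars with 342 and 100 and Odc1 with 100 and 819 reads. Just outside lay Pisd with 99 and 171, Elp3 with 291 and 99, Cacnb3 with 306 and 99 and Plcd3 with 540 and 99 reads. Genes on either side of the threshold thus included some with many reads in 1 library, and a gene outside the set cannot be read as absent from the cells.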

How the data were processed

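The authors deposited a table of whole read counts with mouse Ensembl IDs. The submitters' processing notes list HISAT2 2.2.1, fastp 0.20.1, DESeq2 1.38.3 and featureCounts 2.0.1, together with the builds GRCm39 and GRCh38, whose role they leave out. How strand and multi-mapping reads were handled is not given in the sources used. Column names show condition and number without the assay, and both normal columns were assigned to RNA-seq since gene counts are what they hold. Libraries 1 and 2 follow the column numbers. Every row had at least 1 read over the 4 libraries of the table. Symbols were found for 12271 of 12404 IDs (98.9%). The peak table was not used. Some listed genes are counted but not reported here by name.

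CPM was computed from each column total with Python 3.11.15 and pandas 2.3.3. The 2 libraries have no contrast, so no test was run. edgeR 4.0.16 in R 4.3.3 gave the coefficient of variation and TMM factors and DESeq2 1.42.0 the size factors of an alternative. The scripts were tested on simulated counts. Members and lists were chosen with earlier results of these data known. Named genes were the 20 with the highest mean CPM, up to 6 members of each list with the highest mean CPM, listed genes with fewer than 10 reads in both libraries, all Leydig list rows, the 6 genes furthest apart in each direction with a mean of at least 100 CPM, and 4 genes on each side of the threshold. Other listed genes, collagens, mitochondrial genes and the genes in the last part were named after their values were seen. A ranking per transcript length was not made. Intervals and limits at 0 reads take in counting error alone, because PCR copies of a molecule cannot be recognised without molecular identifiers.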

Additional observations from a re-analysis of the deposited data

How the results depend on the processing

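The number of baseline genes was 6193, and it lay within 1.5 times of that at 50 reads (7029) and 200 reads (4750) in both libraries and at 10 CPM in both (6460). In 1 library alone it was 7342 without library 1 and 8165 without library 2. The Spearman correlation of 0.744 was 0.734 over all rows and 0.743 over genes with at least 1000 reads in both. The share within 2-fold was 71.2%, and it was 91.3% with at least 1000 reads in both and 42.2% over all rows with a read. TMM and DESeq2 scaling gave 71.3% and 71.3%. The coefficient of variation of 0.442 was 0.275 with at least 1000 reads in both and 1.47 over all rows with a read, so agreement depended on which genes were taken. Of the 26 list counts, 3 moved by over 1.5 times at 200 reads in both, 3 by 1 library alone and 0 at 50 reads. At 200 reads in both, the members numbered 5 in the progenitor list, 1 in the Sertoli list and 16 among secreted factors. By 1 library alone they numbered 2 to 5 in the Sertoli list, 0 to 1 in the macrophage list and 3 to 4 in the epithelial list. TMM moved none of the 170 named genes' mean levels by more than their SD. The CPM sums of the families, an alternative chosen after seeing the data, also moved by less than their SD. Leaving out a library gave no value for the correlation, the share within 2-fold or the coefficient of variation, which need both. The ranking per length was not run, as no transcript lengths were used. No paired analysis was possible because 1 group of 2 libraries was described and no result came from a test.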

Other observations

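Developmental transcription factors, chosen after their values were seen, gave a further view of the line. Of 39 Hox genes 22 were rows and 7 were members, a smaller share of rows than the 49.9% over all rows. Hox genes are known for setting position along the body axis. Hoxc8 had 270.3 and 259.8 CPM, Hoxa10 102 and 161 CPM and Hoxa11 27.4 and 27.7 CPM. Hoxc9 and Hoxb7 had 80.9 and 14.4 CPM (Hoxc9) and 48.2 and 16.1 CPM (Hoxb7), both higher in library 1, and Hoxa9 and Hoxb6 12.7 and 43.6 CPM (Hoxa9) and 12.9 and 32.2 CPM (Hoxb6), both higher in library 2. Of the other rows 11 had 0 reads in 1 library or both, among them Hoxc5 with 0 and 283 and Hoxc13 with 0 and 205 reads. The Hox partner genes Meis1 and Meis2 had 190.0 and 249 CPM (Meis1) and 202 and 397 CPM (Meis2).

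Gata2, known from blood and urogenital development, had 145 and 145 CPM. Emx2, a factor of the urogenital ridge, had 14.3 and 43 CPM and the signal gene Wnt4 14.7 and 37.4 CPM. Pax3, known from neural crest and muscle precursors, had 49.3 and 71.7 CPM (515 and 539 reads). The developmental factors picked, 22 in all without the Hox genes, were all rows. Of these 16 were members, where 49.9% of all rows were. The factors were picked after their values were seen, so neither count is a result about them. Over 2-fold apart were 5 of the 16, near the 28.8% of all members. The 6 picked factors that were not members had 0 reads in 1 library, such as Foxf1 with 235 and 0 reads. Foxf2 and Tbx15, factors of mesenchyme, had 35.1 and 44.3 CPM (Foxf2) and 20.7 and 58.5 CPM (Tbx15). Of the Hippo pathway, which senses cell density, the effectors Yap1, Wwtr1 and Tead1 had 217 and 203 CPM (Yap1), 138.7 and 249.95 CPM (Wwtr1) and 406 and 399 CPM (Tead1). The Y-linked genes Ddx3y, Kdm5d and Uty had 802 and 970.0 CPM (Ddx3y), 161 and 198 CPM (Kdm5d) and 69.4 and 98 CPM (Uty), for a line from the testis.

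Copies and their parent genes divided reads unevenly. Of the members, 40 were named as a pseudogene or related sequence of a gene that was also a row. In 9 of them the copy had more reads than the parent in both libraries and in 18 the parent had more. Tpt1-ps3 had 16482 and 11110 reads, while Tpt1, which encodes a translationally controlled tumor protein, had 1527 and 1361. Rps2-ps10 had 2189 and 210 reads against 2 and 18 for the ribosomal protein gene Rps2, and Rpl17-ps10 had 2788 and 3083 against 669 and 229 for Rpl17. Hspd1, the mitochondrial chaperonin gene, had 12622 and 11560 reads, above the 3594 and 3916 of Hspd1-ps3. The part of read placement in these values was not tested.

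Of 4537 rows with at least 500 reads in 1 library or both, 73 had 0 in the other. Dnaaf5 had 1391 and 0 reads, at least 333-fold higher in library 1 against a floor of 3 counts in library 2. Katnbl1 had 0 and 1044 reads, at least 484-fold higher in library 2 against the same floor in library 1. These bounds take in counting error alone, and both libraries carry the same label.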
